A study of Mus musculus with 18 samples.

Results

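The glucocorticoid receptor gene Nr3c1 and 8 of its classical target genes, Fkbp5, Tsc22d3, Per1, Sgk1, Dusp1, Klf9, Klf15 and Errfi1, were followed in mouse retina after injection of a steroid into the vitreous. Every probe set whose platform annotation names 1 of these 9 symbols and no other gene was taken, which gave 26 of the 45101 probe sets on the array for 9 of the 18193 genes named. Nr3c1 had 6 of them, Klf9 7, Tsc22d3 4, Fkbp5 3, Errfi1 2, and Per1, Sgk1, Dusp1 and Klf15 had 1 each. The eyes of male C57BL6/J mice, 2 months old, received a single intravitreal injection of triamcinolone (TAA in the labels), dexamethasone (DEX) or the control solution (BSS) at day 0. Retinas were collected at day 30 or day 7, with 3 biological replicates in each of the 6 groups and 1 array per replicate, 18 arrays in all. The labels give no dose for either steroid, so the steroids are compared as injected and not at a matched dose. Nothing in the labels says whether an animal gave more than 1 retina.

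The glucocorticoid receptor is a ligand-activated transcription factor that waits in the cytosol in a complex with heat shock proteins and co-chaperones. When a steroid binds, the receptor moves into the nucleus and binds DNA elements near its target genes, and several of those targets limit the response in turn. In the retina the receptor is known from Müller glia among other cells, and injected steroids are used in the eye against oedema and inflammation. Dexamethasone and triamcinolone are both synthetic fluorinated agonists of this receptor.

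Promoter windows of Sgk1, Fkbp5, Klf9 and Klf15 are printed first, and the other windows searched are not printed. Receptor binding was not measured here, and sites outside such windows were not searched. RefSeq windows on GRCm38.p6, from 250 bases before to 50 after an annotated start, were used for 8 target genes, 17 windows in all. A palindromic receptor element, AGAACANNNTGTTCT, which reads the same on both strands, was searched together with its 6-base arm AGAACA and the reverse complement TGTTCT. The whole element occurred in 3 of 32851 windows of the genome (0.00913%), and 1 of these belonged to Sgk1. An arm occurred in 19.0% of all windows and in 4 of the 17 (23.5%), which belonged to 2 genes, Sgk1 and Tsc22d3. Sgk1 alone had 6 of the 17 windows and Tsc22d3 had 3, so genes with many annotated starts weigh more in that share. The Sgk1 windows that start at 21978422, 21985854 and 21994416 held neither the element nor an arm. The Sgk1 window lies at chr10:21993640-21993939 on the plus strand, with the element at 21993701 to 21993715. The Fkbp5 window is chr17:28486100-28486399 on the minus strand, the Klf9 window chr19:23140976-23141275 on the plus strand, and the Klf15 window chr6:90462326-90462625 on the plus strand. These 3 genes have differences described below, and their windows hold neither the element nor an arm. Capitals mark the letters matched, and every other base is in lower case.
Sgk1: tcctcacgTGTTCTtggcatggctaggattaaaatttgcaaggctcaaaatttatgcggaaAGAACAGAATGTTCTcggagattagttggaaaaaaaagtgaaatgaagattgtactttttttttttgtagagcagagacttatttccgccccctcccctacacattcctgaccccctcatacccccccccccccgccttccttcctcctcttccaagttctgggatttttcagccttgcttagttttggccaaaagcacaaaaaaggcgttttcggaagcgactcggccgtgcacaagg
Fkbp5: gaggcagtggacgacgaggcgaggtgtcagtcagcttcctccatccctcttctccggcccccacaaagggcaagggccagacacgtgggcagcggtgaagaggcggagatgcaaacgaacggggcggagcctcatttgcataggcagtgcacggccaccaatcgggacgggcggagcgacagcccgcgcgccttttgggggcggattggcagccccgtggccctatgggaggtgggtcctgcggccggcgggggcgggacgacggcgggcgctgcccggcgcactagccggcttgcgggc
Klf9: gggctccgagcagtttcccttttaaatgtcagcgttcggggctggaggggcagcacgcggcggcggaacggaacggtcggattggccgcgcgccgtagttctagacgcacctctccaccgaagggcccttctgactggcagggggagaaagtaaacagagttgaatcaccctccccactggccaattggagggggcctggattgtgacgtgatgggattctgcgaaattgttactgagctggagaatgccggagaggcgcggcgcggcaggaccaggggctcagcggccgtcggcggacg
Klf15: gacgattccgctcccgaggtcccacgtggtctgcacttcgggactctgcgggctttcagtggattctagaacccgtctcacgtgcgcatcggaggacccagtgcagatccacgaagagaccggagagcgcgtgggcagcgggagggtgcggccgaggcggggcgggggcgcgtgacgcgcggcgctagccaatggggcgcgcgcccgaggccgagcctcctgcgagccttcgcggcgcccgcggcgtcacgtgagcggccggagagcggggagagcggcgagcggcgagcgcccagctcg
The match in the Sgk1 window is a description of its letters, and the lack of one in the other windows says only that these letters are not there.

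The deposited log2 values are centred, for each probe set, on its median array. A value of 0 is therefore the middle array of that probe set, and a difference of 1 is a doubling. No level and no signal over background can be read from such values, so levels of different genes were not compared and the retinal identity of the samples could not be checked against the level of its markers. Over all 45037 probe sets that are not controls, the residual SD within groups had a median of 0.167, and 3 arrays a group limit the precision of every difference. The widest spreads over all probe sets were an SD of 0.349 on the second TAA array of day 30 and 0.338 on the second TAA array of day 7. Next came the second and first DEX arrays of day 30, at 0.296 and 0.265. These 2 DEX arrays also had the highest correlation of any 2 arrays over all probe sets, an r of 0.664. The second TAA array of day 30 also had the lowest 3′ minus 5′ difference of the Actb control probe sets, -0.459, against -0.167 to 0.137 on the other 17 arrays. In whole retina, fewer cells of a type and less RNA per cell cannot be told apart.

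No member probe set passed an adjusted p of 0.05 in any of 14 comparisons tested with limma, where adjustment ran over all 45037 probe sets. The share of all probe sets that passed was 0.00222% for TAA against BSS at day 7 and for DEX against TAA averaged over both days, 1.92% for day 30 against day 7 under DEX, and 0.0133% for day 30 against day 7 under BSS. It was 0% in the other 10 comparisons. The smallest adjusted p of a member was 0.0661, that of Nr3c1 for day 30 against day 7 under DEX. The differences below are therefore given with unadjusted p-values as a description, together with the share of all probe sets that reached the same mark.

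**Figure D1:**
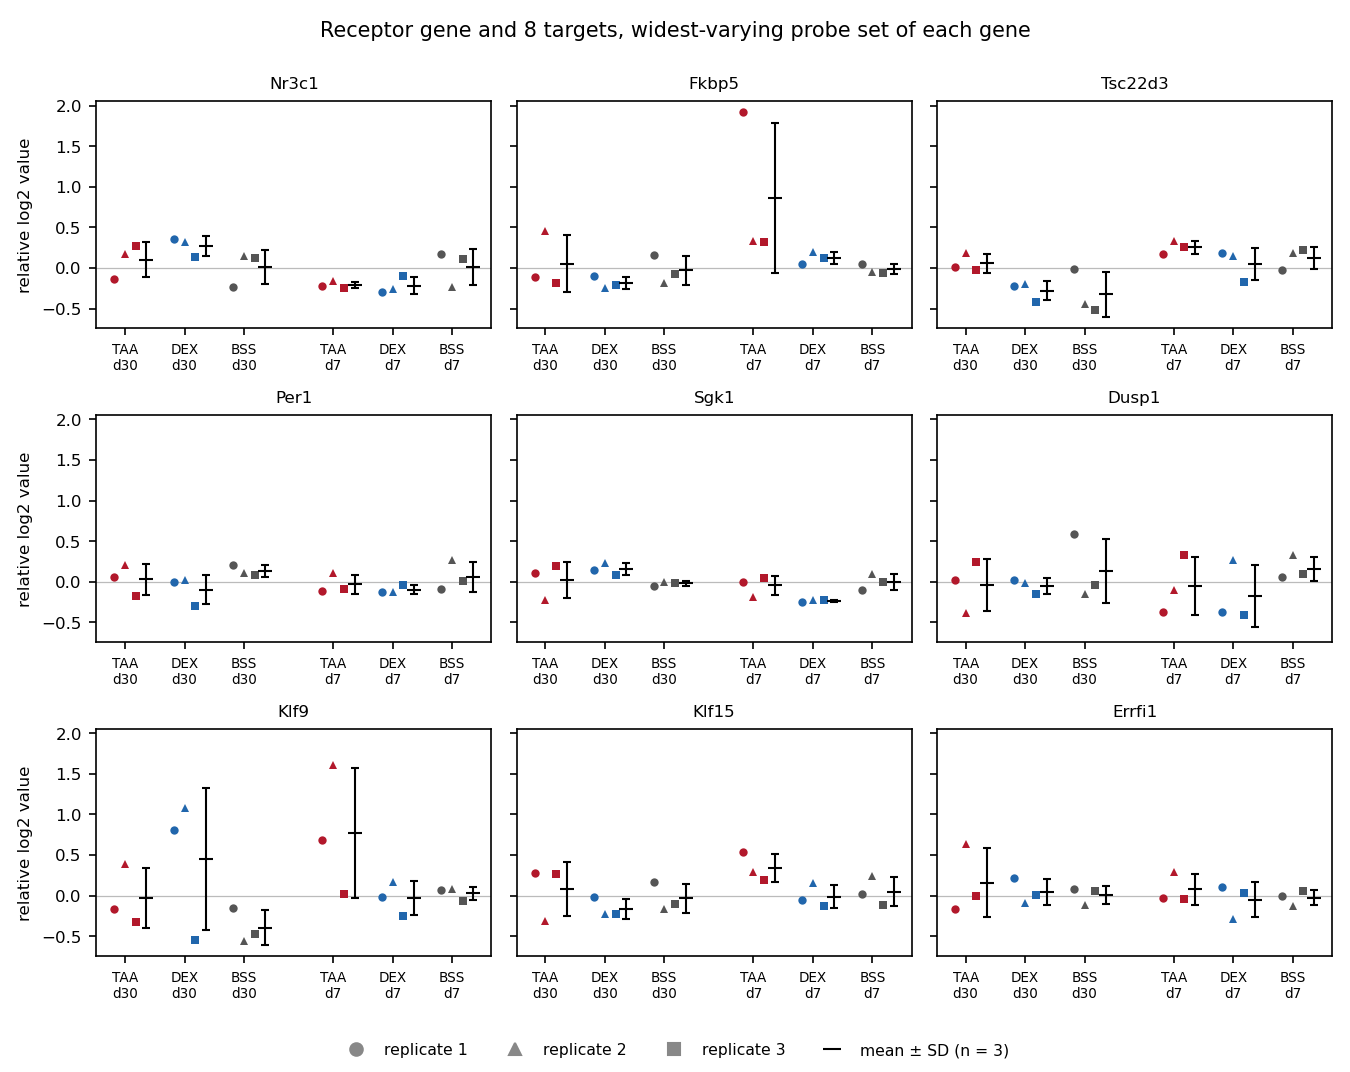
Relative log2 value (vertical axis, 0 is the median over 18 arrays) of the receptor gene and its 8 targets in each TAA, DEX and BSS array at day 30 and day 7, for the probe set of each gene with the widest interquartile range. Symbols are replicates and the bar beside them is the mean ± SD of 3. The first TAA array of day 7 lies at 1.92 for Fkbp5, and Klf9 is spread widely in the TAA group of day 7 and the DEX group of day 30.

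Nr3c1 itself, the receptor gene, lies on chromosome 18 of GRCm38.p6 and showed no uniform shift under either steroid. Its widest-varying probe set, 1421866_at, had values of -0.14, 0.18 and 0.27 in TAA retinas, 0.36, 0.32 and 0.13 in DEX retinas and -0.23, 0.15 and 0.12 in BSS retinas at day 30. At day 7 the same probe set had -0.22, -0.17 and -0.24 in TAA retinas, -0.30, -0.26 and -0.10 in DEX retinas and 0.17, -0.24 and 0.10 in BSS retinas. Both steroid groups sat below 0 on every array at day 7, but 1 BSS array of that day lay just as low, so the groups overlapped. The difference from BSS at day 7 was -0.22 ± 0.13 (SE) for TAA, with an unadjusted p of 0.113, and -0.23 ± 0.13 for DEX, with an unadjusted p of 0.1. At day 30 it was 0.09 ± 0.13 for TAA and 0.26 ± 0.13 for DEX. Within the DEX groups this probe set averaged 0.27 ± 0.12 at day 30 and -0.22 ± 0.10 at day 7 (SD, n = 3 each), with no overlap. That difference of 0.49 ± 0.13 had an unadjusted p of 0.00196 and an adjusted p of 0.0661. The DEX difference from BSS also lay on opposite sides of 0 at the 2 days, and its change was 0.49 ± 0.19, with an unadjusted p of 0.0193 and an adjusted p of 0.558. Leaving out 1 array at a time moved the difference between the days under DEX from 0.45 without DEX day 30 replicate 1 to 0.56 without DEX day 30 replicate 3.

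A different Nr3c1 probe set, 1453860_s_at, separated the steroids from each other. It had -0.46, -0.33 and -0.27 in TAA retinas, 0.12, 0.20 and -0.07 in DEX retinas and 0.08, -0.10 and -0.21 in BSS retinas at day 30. At day 7 its values were 0.13, -0.19 and -0.21 in TAA retinas, 0.42, 0.19 and 0.31 in DEX retinas and 0.29, -0.31 and 0.07 in BSS retinas. Every DEX array lay above every TAA array of its own day, and the BSS arrays lay between or across them. DEX exceeded TAA by 0.43 ± 0.14 at day 30 (unadjusted p = 0.00685) and by 0.40 ± 0.14 at day 7 (unadjusted p = 0.0119). Averaged over both days the difference was 0.42 ± 0.10, a 1.33-fold ratio of DEX over TAA, with an unadjusted p of 0.000634 and an adjusted p of 0.302. Against BSS this probe set stood at -0.28 ± 0.14 for TAA at day 30, where the groups did not overlap, and at 0.29 ± 0.14 for DEX at day 7, where they did.

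The third Nr3c1 probe set with a difference was 1460303_at. It had -0.18, -0.24 and 0.02 in TAA retinas, 0.23, 0.36 and -0.04 in DEX retinas and -0.06, -0.05 and -0.13 in BSS retinas at day 30, and DEX exceeded BSS on every array although its lowest array cleared the highest BSS array by little. That difference was 0.27 ± 0.12 with an unadjusted p of 0.0448, and it ran from 0.18 without DEX day 30 replicate 2 to 0.38 without DEX day 30 replicate 3 when 1 array was left out. At day 7 the values were -0.28, 0.21 and -0.01 in TAA retinas, 0.01, 0.07 and -0.06 in DEX retinas and 0.02, 0.09 and 0.06 in BSS retinas, and the groups overlapped.

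The remaining 3 probe sets of the receptor gene differed less between groups, or less evenly. Probe set 1457635_s_at had -0.002, -0.64 and 0.40 in TAA retinas, -0.05, 0.72 and 0.002 in DEX retinas and -0.01, -0.14 and -0.26 in BSS retinas at day 30, with -0.004, 0.23 and 0.13, -0.16, 0.16 and -0.37 and 0.08, 0.19 and 0.02 in the TAA, DEX and BSS retinas of day 7. For 1421867_at the day 30 values were -0.03, -0.38 and 0.001 in TAA retinas, 0.16, 0.10 and -0.09 in DEX retinas and 0.03, -0.001 and -0.03 in BSS retinas, and those of day 7 were -0.39, -0.03 and 0.05, 0.08, -0.01 and 0.01 and 0.05, -0.10 and 0.09 in TAA, DEX and BSS retinas. For 1431378_at they were 0.12, -0.23 and 0.02 in TAA retinas, -0.01, -0.05 and -0.004 in DEX retinas and 0.02, 0.29 and 0.004 in BSS retinas at day 30, and 0.09, -0.02 and -0.15, 0.03, -0.07 and -0.02 and 0.15, -0.12 and 0.11 in TAA, DEX and BSS retinas at day 7. Low single TAA arrays stand out in the first and second of these, and only 1431378_at had a group that did not overlap with BSS, DEX at day 30, at -0.13 ± 0.11. Over the 18 arrays the 15 pairs of Nr3c1 probe sets correlated with a median r of 0.215 (-0.105 to 0.692), so the probe sets of this gene do not give one pattern, and suffixes such as _s_at and _a_at mark probe sets that can read more than 1 transcript.

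**Figure D2:**
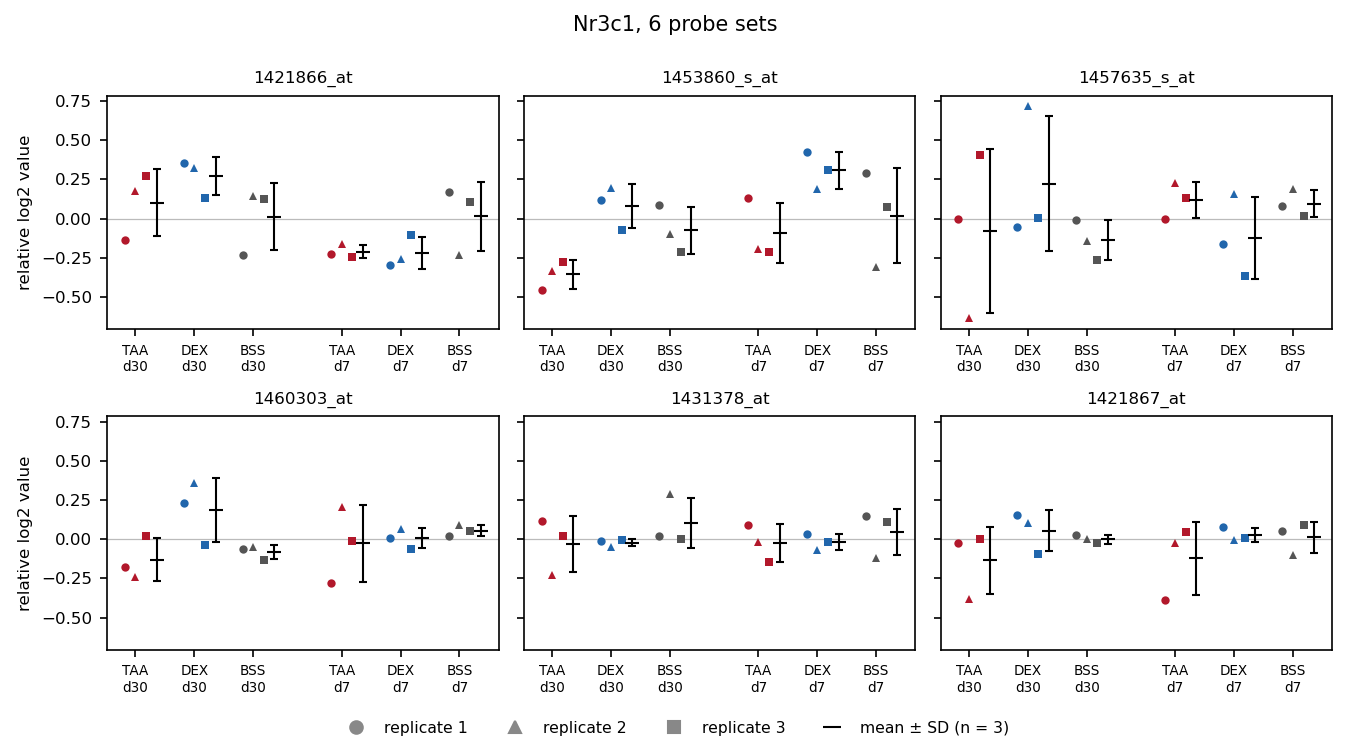
Relative log2 value (vertical axis) of the 6 Nr3c1 probe sets in each TAA, DEX and BSS array at day 30 and day 7, with the mean ± SD of 3 arrays beside each group. In 1453860_s_at every DEX array lies above every TAA array of the same day, and in 1421866_at the DEX arrays of day 30 lie above those of day 7.

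Fkbp5, which encodes the co-chaperone FKBP51 that lowers the receptor's affinity for its ligand, gave the clearest TAA difference at day 7 on 1 of its 3 probe sets. The gene lies at 28398753 to 28486149 on chromosome 17 of GRCm38.p6. Its widest-varying probe set, 1416125_at, had 1.92, 0.33 and 0.33 in TAA retinas, 0.04, 0.19 and 0.13 in DEX retinas and 0.05, -0.04 and -0.06 in BSS retinas at day 7. All 3 TAA arrays lay above all 3 BSS arrays and above all 3 DEX arrays, but the first of them lay far above the other 2, which were alike. The TAA difference from BSS was 0.88 ± 0.29, a 1.84-fold ratio, with an unadjusted p of 0.00712 and an adjusted p of 0.9998. Left-out arrays moved it from 0.35 without TAA day 7 replicate 1 to 1.15 without TAA day 7 replicate 3, and the unadjusted p stayed under 0.05 in 6 of 6 such fits. DEX at day 7 differed from BSS by 0.14 ± 0.29 (95% interval -0.47 to 0.75). DEX lay -0.74 ± 0.29 from TAA at day 7, with an unadjusted p of 0.02, and this shrank to -0.21 without the first TAA array.

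At day 30 the same Fkbp5 probe set had -0.11, 0.46 and -0.19 in TAA retinas, -0.10, -0.25 and -0.21 in DEX retinas and 0.16, -0.18 and -0.07 in BSS retinas. Here 1 TAA array was high and the groups overlapped, with differences from BSS of 0.08 ± 0.29 for TAA and -0.16 ± 0.29 for DEX. Within the TAA groups, day 30 lay -0.81 ± 0.29 from day 7, with an unadjusted p of 0.0121. The change of the TAA effect between the days was -0.80 ± 0.41, with an unadjusted p of 0.0672, so a smaller TAA effect at day 30 than at day 7 was not shown. Over both days, an exact permutation of the labels within day gave a two-sided p of 0.085 for TAA against BSS, 1 of 6 such tests, in which the smallest p possible was 0.005.

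The other Fkbp5 probe sets showed less. Probe set 1448231_at had 0.65, -0.14 and 0.01 in TAA retinas, -0.23, 0.001 and 0.19 in DEX retinas and -0.08, -0.001 and -0.25 in BSS retinas at day 7, with the same first TAA array high and the other 2 within the range of BSS or near it. At day 30 its values were -0.27, 0.32 and -0.16 in TAA retinas, 0.03, -0.14 and 0.15 in DEX retinas and 0.10, -0.14 and 0.17 in BSS retinas. Probe set 1447736_at had 0.10, 0.02 and 0.09 in TAA retinas, -0.15, -0.02 and 0.02 in DEX retinas and -0.15, -0.12 and -0.19 in BSS retinas at day 30, and 0.06, 0.14 and 0.02, -0.17, -0.04 and -0.12 and 0.02, -0.15 and 0.09 in TAA, DEX and BSS retinas at day 7. In the last of these the TAA arrays of day 30 lay above the BSS arrays without overlap, by 0.22 ± 0.09 with an unadjusted p of 0.0241, a date at which 1416125_at showed no such separation. The 3 pairs of Fkbp5 probe sets correlated with a median r of 0.242 (-0.102 to 0.753) over the arrays.

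Tsc22d3, which encodes the anti-inflammatory leucine zipper protein GILZ, stood higher under TAA than under BSS at day 30 on its widest-varying probe set. The gene lies at 140539528 to 140600522 on chromosome X of GRCm38.p6. Probe set 1425281_a_at had 0.01, 0.19 and -0.03 in TAA retinas, -0.23, -0.19 and -0.42 in DEX retinas and -0.01, -0.45 and -0.52 in BSS retinas at day 30. The TAA arrays lay near the middle of the scale and 2 of 3 BSS arrays lay well below it, while the first BSS array reached into the TAA range. TAA minus BSS was 0.38 ± 0.13 with an unadjusted p of 0.0106 and an adjusted p of 0.721. DEX lay below TAA on every array, by -0.34 ± 0.13 with an unadjusted p of 0.0224, and differed from BSS by 0.05 ± 0.13 (95% interval -0.23 to 0.33).

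At day 7 the Tsc22d3 values were 0.17, 0.33 and 0.26 in TAA retinas, 0.18, 0.15 and -0.17 in DEX retinas and -0.03, 0.18 and 0.22 in BSS retinas, and the groups overlapped. Day 30 lay below day 7 in BSS retinas by -0.45 ± 0.13, with an unadjusted p of 0.00362, in DEX retinas by -0.33 ± 0.13 and in TAA retinas by -0.20 ± 0.13. The gap between the days was as wide in BSS retinas as in steroid retinas, and the TAA values of day 30 were not above those of day 7. The exact permutation within day gave a two-sided p of 0.035 for TAA against BSS over both days, or 0.21 after Benjamini-Hochberg adjustment over the 6 such tests, and 0.905 for DEX against BSS. Of the other 3 Tsc22d3 probe sets, 1420772_a_at had TAA arrays above all BSS arrays at day 7, by 0.26 ± 0.19 with an unadjusted p of 0.192. At day 30 TAA minus BSS was 0.30 on 1420772_a_at, but 0.02 without the second TAA array of that day. It was -0.02 on 1425557_x_at and -0.09 on 1444365_at, so the TAA difference of day 30 was not shared by all probe sets. Over all 18 arrays 1425557_x_at, whose suffix marks probes that can match other transcripts, ran from -0.16 to 0.35, and 1444365_at ran from -0.33 to 0.29. Between the days 1444365_at went the other way, higher at day 30 by 0.24 in BSS, 0.17 in DEX and 0.19 in TAA retinas. On 1420772_a_at and 1425557_x_at the means of day 30 were the lower ones in every group. The 6 pairs of probe sets had a median r of 0.0794 (-0.478 to 0.592).

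Sgk1, a kinase that regulates ion channels and transporters, had DEX arrays apart from the BSS arrays in opposite directions at the 2 days. The gene lies at 21882184 to 21999903 on chromosome 10 of GRCm38.p6, and 1 of its promoter windows is the one with the palindromic element printed above. Its only probe set, 1416041_at, had 0.10, -0.23 and 0.19 in TAA retinas, 0.15, 0.23 and 0.08 in DEX retinas and -0.05, 0.001 and -0.01 in BSS retinas at day 30. At day 7 it had 0.003, -0.18 and 0.04 in TAA retinas, -0.25, -0.22 and -0.23 in DEX retinas and -0.11, 0.09 and -0.001 in BSS retinas. The DEX arrays lay above all BSS arrays at day 30 and below all of them at day 7, while TAA and BSS overlapped at both days. DEX minus BSS was 0.18 ± 0.11 at day 30 (unadjusted p = 0.121) and -0.23 ± 0.11 at day 7 (unadjusted p = 0.0485). The change of the DEX effect was 0.40 ± 0.15, with an unadjusted p of 0.0165 and an adjusted p of 0.543. Directly between the days, DEX retinas of day 30 exceeded those of day 7 by 0.39 ± 0.11 (unadjusted p = 0.0021, adjusted p = 0.067), and leaving out arrays gave 0.35 without DEX day 30 replicate 2 to 0.42 without DEX day 30 replicate 3. In BSS retinas the same difference was -0.02 ± 0.11 (95% interval -0.24 to 0.21).

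Klf9, a Krüppel-like transcription factor induced by glucocorticoids and thyroid hormone, differed widely between groups on 2 of its 7 probe sets. The gene lies at 23141226 to 23168129 on chromosome 19 of GRCm38.p6. Probe set 1422264_s_at had -0.42, -0.28 and -0.35 in TAA retinas, 0.85, 1.20 and -0.05 in DEX retinas and -0.20, -0.08 and -0.71 in BSS retinas at day 30. Of the DEX arrays 2 were high and the third lay just above the highest BSS array, so DEX cleared both other groups. The 2 high DEX arrays are the pair most alike over all probe sets. The part of that likeness in the Klf9 difference was not tested. DEX minus BSS was 0.997 ± 0.287, a 2-fold ratio, with an unadjusted p of 0.00279 and an adjusted p of 0.374. DEX minus TAA was 1.02 ± 0.29, with an unadjusted p of 0.00237 and an adjusted p of 0.118. Without the third DEX array of day 30 these differences became 1.36 and 1.38, and their adjusted p-values 0.0235 and 0.0104. In those 2 fits 2009 and 3023 of all probe sets passed too, or 4.46% and 6.71%, against 0 with all arrays.

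At day 7 the same Klf9 probe set had 0.78, 1.29 and -0.03 in TAA retinas, 0.30, 0.25 and 0.05 in DEX retinas and 0.11, 0.03 and -0.10 in BSS retinas. Here it was the first and second TAA arrays that were high, and the third lay within the BSS range. TAA minus BSS was 0.67 ± 0.29 with an unadjusted p of 0.0309, from 0.37 without TAA day 7 replicate 2 to 1.03 without TAA day 7 replicate 3. In TAA retinas day 30 lay -1.03 ± 0.29 from day 7, without overlap (unadjusted p = 0.00211).

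The widest-varying Klf9 probe set, 1436763_a_at, followed the same arrays, with an r of 0.876 to 1422264_s_at, the highest of 21 pairs. It had -0.16, 0.39 and -0.32 in TAA retinas, 0.81, 1.08 and -0.54 in DEX retinas and -0.15, -0.56 and -0.47 in BSS retinas at day 30. At day 7 it had 0.69, 1.61 and 0.02 in TAA retinas, -0.02, 0.17 and -0.25 in DEX retinas and 0.07, 0.08 and -0.06 in BSS retinas. Within each of the 2 high groups the third array lay in the range of BSS, so the groups overlapped. The differences were 0.85 ± 0.36 for DEX against BSS at day 30 (unadjusted p = 0.0312) and 0.74 ± 0.36 for TAA against BSS at day 7 (unadjusted p = 0.0545).

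Among the other 5 Klf9 probe sets, 2 separated TAA from BSS at day 7. Probe set 1456341_a_at had 0.36, 0.37 and 0.09 in TAA retinas, -0.09, 0.07 and 0.002 in DEX retinas and -0.08, -0.02 and -0.02 in BSS retinas at day 7. Probe set 1428289_at had 0.42, 0.24 and 0.08 in TAA retinas, -0.01, 0.04 and 0.004 in DEX retinas and -0.09, -0.01 and 0.01 in BSS retinas at that day. In both, all 3 TAA arrays lay above all BSS and all DEX arrays. The differences from BSS were 0.32 ± 0.11 (unadjusted p = 0.011) and 0.28 ± 0.12 (unadjusted p = 0.0344), smaller than on the 2 wide probe sets and more even between the arrays. At day 30 1456341_a_at had 0.13, -0.19 and 0.04 in TAA retinas, 0.07, 0.06 and -0.21 in DEX retinas and -0.11, -0.01 and -0.002 in BSS retinas, and 1428289_at had 0.02, 0.28 and -0.26, 0.03, -0.004 and -0.19 and -0.13, -0.07 and -0.12 in TAA, DEX and BSS retinas. Neither showed the DEX difference of day 30, which came to 0.01 ± 0.11 and 0.05 ± 0.12 against BSS. The 3 last probe sets ran over the 18 arrays from -0.65 to 0.38 (1428288_at), -0.27 to 0.25 (1452723_at) and -0.30 to 0.46 (1436952_at). TAA minus BSS at day 7 was 0.24, 0.12 and -0.19 on them in that order. DEX minus BSS at day 30 was 0.24 ± 0.14 on 1428288_at, without overlap, -0.03 on 1452723_at and -0.16 on 1436952_at. On 1436952_at DEX also lay below TAA at day 30 without overlap, by -0.28, so this probe set went against the 2 wide ones. In TAA retinas 1428288_at had 0.03, -0.65 and -0.06 at day 30 and 0.38, 0.36 and 0.09 at day 7, so day 30 lay below day 7 without overlap. That difference was -0.50 ± 0.14, with an unadjusted p of 0.00285, and it shrank to -0.29 without the second TAA array of day 30. Pairs of Klf9 probe sets had a median r of 0.282 (-0.651 to 0.876).

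**Figure D3:**
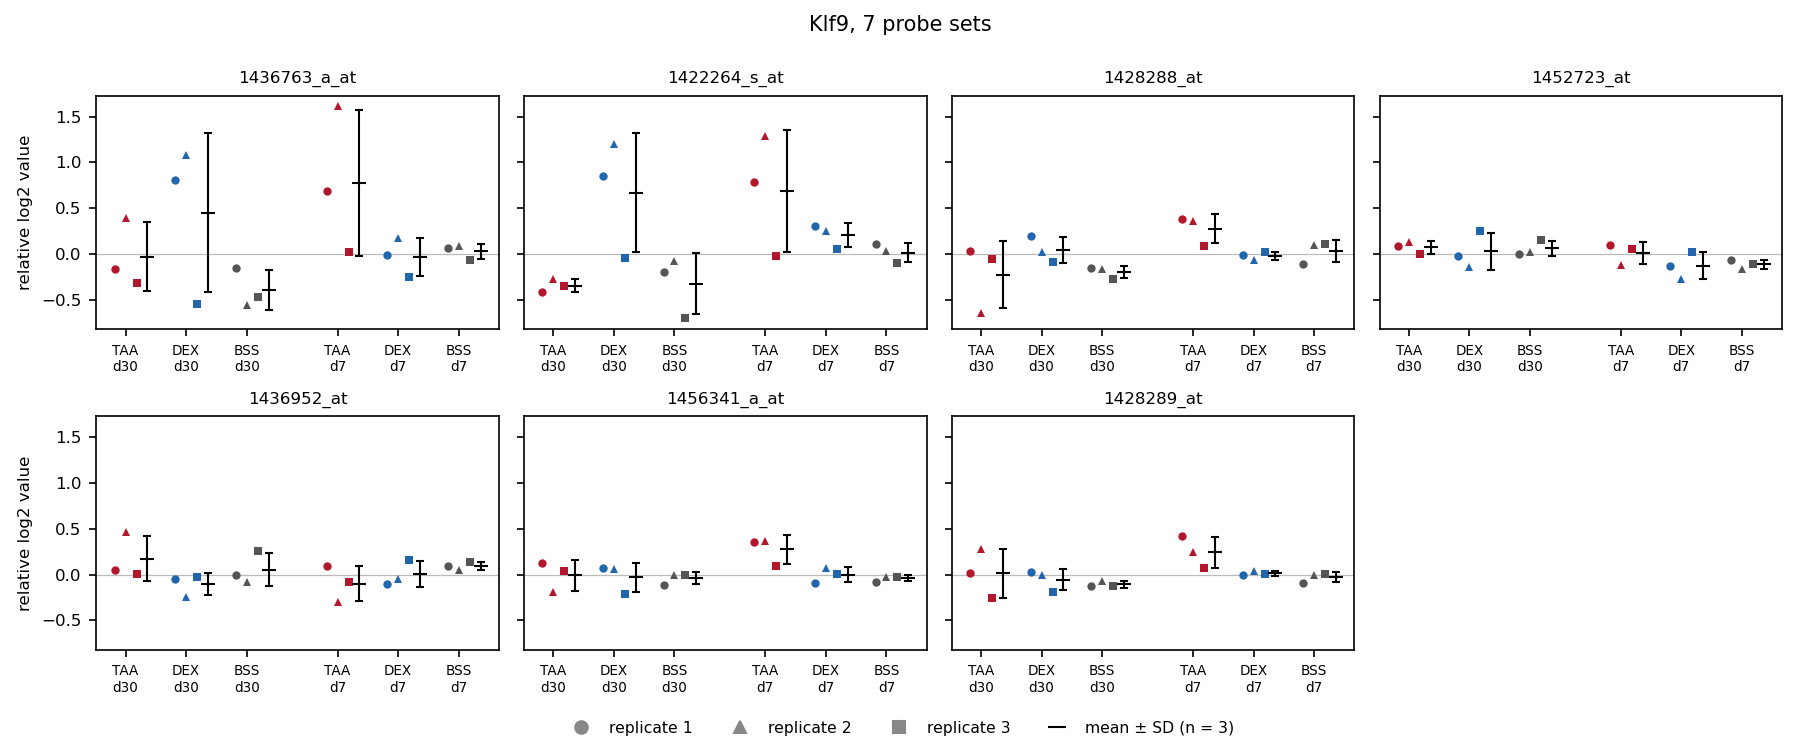
Relative log2 value (vertical axis) of the 7 Klf9 probe sets in each TAA, DEX and BSS array at day 30 and day 7, with the mean ± SD of 3 arrays beside each group. The first 2 panels share high replicates 1 and 2 in DEX retinas of day 30 and in TAA retinas of day 7, and in the other 5 panels no array lies above 0.46.

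Klf15, a Krüppel-like factor of amino acid and lipid metabolism, was higher under TAA than under DEX at day 7, while TAA and BSS overlapped. The gene lies at 90461043 to 90491803 on chromosome 6 of GRCm38.p6. Probe set 1448181_at had 0.53, 0.29 and 0.19 in TAA retinas, -0.06, 0.15 and -0.13 in DEX retinas and 0.02, 0.24 and -0.12 in BSS retinas at day 7. All TAA arrays lay above all DEX arrays, and 2 of the 3 lay above all BSS arrays. DEX minus TAA was -0.35 ± 0.16 with an unadjusted p of 0.0355, and TAA minus BSS was 0.29 ± 0.16 with an unadjusted p of 0.0763. At day 30 the values were 0.28, -0.31 and 0.27 in TAA retinas, -0.02, -0.23 and -0.23 in DEX retinas and 0.17, -0.17 and -0.10 in BSS retinas, and the second TAA array lay below every BSS array. Averaged over both days DEX lay -0.30 ± 0.11 from TAA, with an unadjusted p of 0.0143.

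Per1, Dusp1 and Errfi1 showed no TAA difference with an unadjusted p under 0.05. Per1, a repressor of the circadian clock whose gene lies at 69095108 to 69109965 on chromosome 11 of GRCm38.p6, ran from -0.30 to 0.26 over the 18 arrays. Its 3 DEX arrays of day 30 lay below its 3 BSS arrays, by -0.23 ± 0.12, and averaged over both days DEX lay -0.19 ± 0.09 from BSS with an unadjusted p of 0.0405. Dusp1, the MAP kinase phosphatase 1 gene at 26505591 to 26508472 on chromosome 17, ran from -0.41 to 0.58 with wide spreads inside groups, and differed from BSS at day 7 by -0.21 ± 0.22 under TAA and -0.33 ± 0.22 under DEX. Errfi1, an inhibitor of epidermal growth factor receptor signalling at 150853796 to 150868889 on chromosome 4, ran from -0.19 to 0.12 on 1416129_at and from -0.29 to 0.64 on 1419816_s_at. On 1416129_at the DEX arrays of day 7 lay above the BSS arrays, but by no more than 0.06 ± 0.09. The 2 Errfi1 probe sets correlated at an r of -0.0283, and the highest value of the second, 0.64, came from the second TAA array of day 30, the array with the widest spread and the lowest Actb difference.

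The members with differences under TAA at day 7 were higher there than under BSS. Of the 26 probe sets, 4 had an unadjusted p under 0.05 for TAA against BSS at day 7, all 4 higher in TAA, against 3.75% of all probe sets. They belonged to Fkbp5 (1) and Klf9 (3). The count was 2 without the first TAA array of day 7 and 1 with 1 probe set per gene. Groups did not overlap in 4, all higher in TAA, against 9.91% of all probe sets. Over 1 probe set per gene the median difference was 0.10, with 5 of 9 genes higher, and over all probe sets it was -0.0078. At day 30, 2 of 26 had such a p for TAA against BSS, both higher, against a background of 6.74%, or 1 without the third BSS array of that day, and 2 did not overlap, 1 in each direction, against 12.8%. That share of non-overlapping members was below the background, and the median over genes was 0.09. Averaged over both days, 6 of 26 reached an unadjusted p under 0.05 for TAA against BSS, all higher, against 4.47%. That count was 3 without the first or second TAA array of day 7, without the first or the third BSS array of day 7 or without the third BSS array of day 30.

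For DEX against BSS at day 7, only Sgk1 had an unadjusted p under 0.05, lower in DEX, so 1 of 26 stood against 3.38% of all probe sets, and 2 did not overlap against 13.8%. The count was 0 without the first or the third DEX array or the third BSS array of that day, and 2 without the second DEX or the first BSS array. Over 1 probe set per gene, 1 of 9 was higher in DEX, with a median of -0.07. At day 30, 3 of 26 had such a p, all higher, against 11.3%, and 6 did not overlap, 4 higher and 2 lower, against 13.9%. The 3 were both wide Klf9 probe sets and Nr3c1 1460303_at, and their share was close to the background. It was 1 of 26 without the first or second DEX array or the third BSS array of day 30. Averaged over both days it was 3 of 26 against 5.06%, or 1 without the first DEX array of day 7 or the second BSS array of day 30. TAA and DEX were set against the same BSS arrays, so their differences from BSS are not independent of each other.

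DEX and TAA were also compared directly, without the BSS arrays. At day 7, 5 of 26 members had an unadjusted p under 0.05, 4 of them lower in DEX, against 6.1% of all probe sets. That count was 0 without the first DEX array, 3 without the third DEX array and 1 without the first TAA array of day 7. Groups did not overlap in 9 of 26, 7 lower and 2 higher in DEX, against 12.2%. All 9 genes were lower in DEX on their widest-varying probe set, with a median of -0.19, against a median of 0.0027 over all probe sets. On that probe set the Nr3c1 difference was -0.0085, and it, Per1 and Dusp1 turned their sign in fits with 1 array left out. Over the 26 member probe sets 7 were higher in DEX, against 50.8% of all probe sets. The 2 higher without overlap were Nr3c1 1453860_s_at, at 0.40, and Errfi1 1416129_at, at 0.08, so the direction of these 2 genes depends on the probe set. At day 30 the count was 4 of 26, 3 higher in DEX, against 15.8%, or 7 without the third TAA array of that day, and 5 did not overlap against 14%. Averaged over both days 5 of 26 had such a p, 4 lower in DEX, against 8.62%, with 3 without the first DEX array of day 7 and 8 without the third TAA array of either day or the third DEX array of day 30. For Dusp1, Per1 and Errfi1 the DEX and TAA retinas were not told apart at day 7, with 95% intervals for DEX minus TAA of -0.59 to 0.34, -0.32 to 0.19 and -0.48 to 0.23. Nor did Nr3c1, Tsc22d3 or Sgk1 have an unadjusted p under 0.05 there by limma on their widest-varying probe sets.

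**Figure D4:**
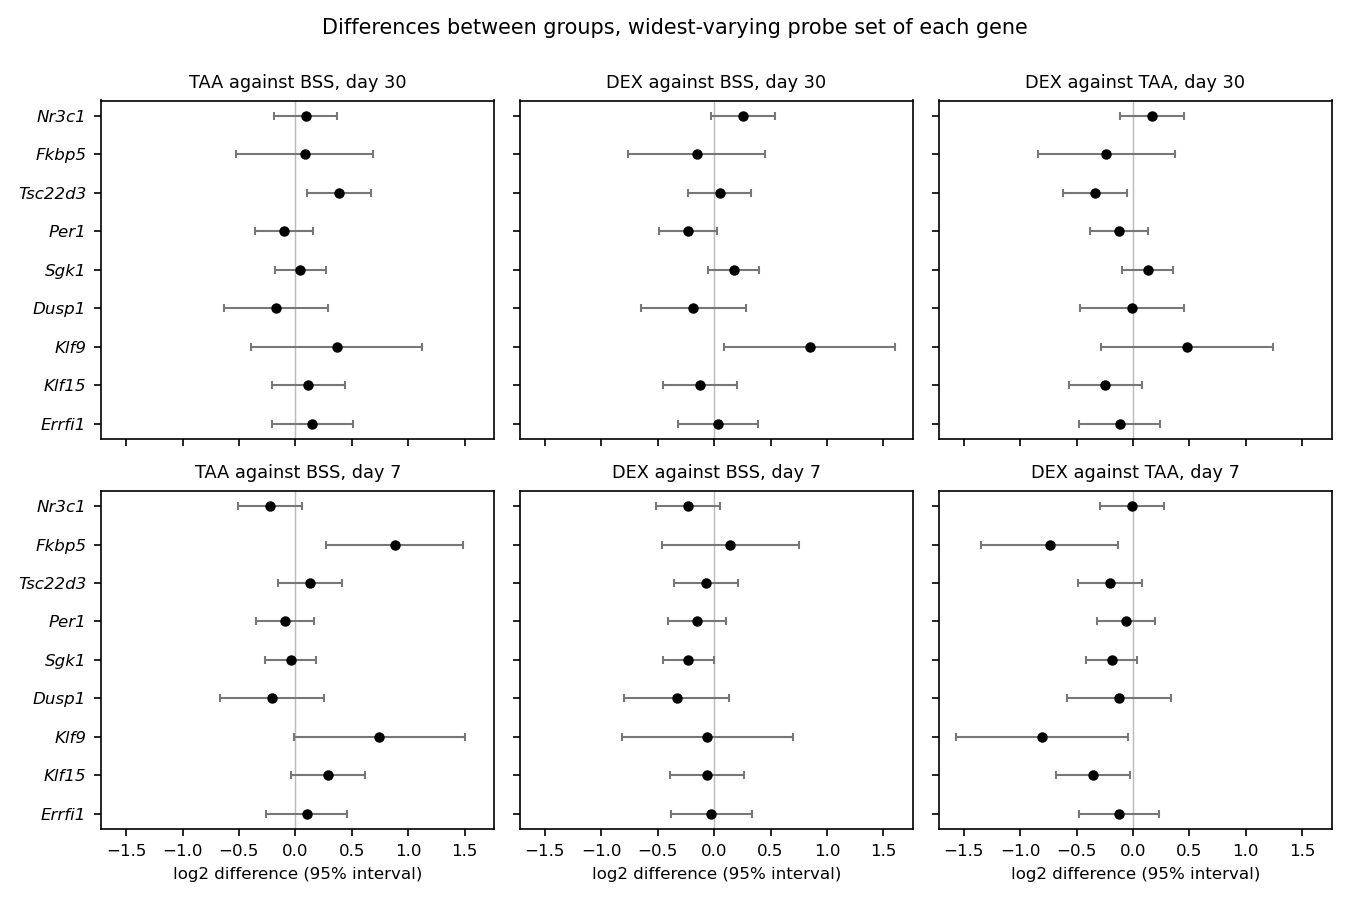
Log2 difference (horizontal axis) with its 95% interval for the widest-varying probe set of each gene, for TAA against BSS, DEX against BSS and DEX against TAA at day 30 (upper row) and day 7 (lower row). For DEX against TAA at day 7 all 9 points lie below 0, that of Nr3c1 at -0.0085, and for DEX against BSS at day 30 Klf9 lies farthest above 0. Other probe sets of these genes are not drawn, and 7 of the 26 member probe sets were higher in DEX than in TAA at day 7.

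The days were also compared within each group. For day 30 against day 7 under TAA, 6 of 26 had an unadjusted p under 0.05, 5 of them lower at day 30, against 11.9% of all probe sets. They belonged to Klf9 (4), Fkbp5 (1) and Nr3c1 (1, higher). The count was 2 with the compared groups alone in the fit, 3 with 1 probe set per gene and 3 without the first TAA array of day 7. Under DEX 3 of 26 had such a p against 18.3%, with Nr3c1 and Sgk1 higher and Tsc22d3 lower at day 30, and the count was 5 without the third DEX array of day 30 and 6 with array weights. Under BSS it was 1 of 26 against 7.36%, Tsc22d3, but 4 with the compared groups alone and 4 with array weights. The shares under DEX and BSS were below the background, and whether the groups differ in these counts was not tested. The change of the TAA effect between the days had an unadjusted p under 0.05 for 0 of 26 members against 5.63%, by limma, and none of them had an adjusted p under 0.05. The change of the DEX effect had it for 2 of 26, Sgk1 and Nr3c1, against 8.16%. With 1 array left out these counts reached 3 without the third TAA array of day 7 for TAA and 5 without the third DEX array of day 30 for DEX, and for DEX it was 1 without the first BSS array of either day.

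The wider glucocorticoid response was described with 30 further genes known to respond to the receptor in other tissues, of which 29 were measured. The list was chosen with earlier results of these data known, so its counts are a description and cannot serve as a test. Each gene was read on its widest-varying probe set, while the shares set beside the counts cover all probe sets. For TAA against BSS at day 7, 27 of 29 were higher, against 47.7% of all probe sets, and the median difference was 0.31. Of these 16 had an unadjusted p under 0.05 and 0 were lower with such a p, against 3.75% of all probe sets, and 9 had it without the first or second BSS array of day 7. None passed after adjustment over all probe sets. The mean over the list was 0.69, 0.73 and 0.12 on the TAA arrays, 0.08, 0.09 and 0.04 on the DEX arrays and -0.06, -0.14 and -0.06 on the BSS arrays of day 7. The third TAA array thus lay close to the DEX arrays, and the first and second were those high in the reactive glia markers given below. The part of those cells in the list's difference was not tested. Fam107a, an actin-associated stress response gene, had 1.82, 0.84 and 0.73 in TAA retinas, -0.14, 0.05 and -0.18 in DEX retinas and 0.19, -0.16 and -0.12 in BSS retinas at day 7, a TAA difference of 1.15 ± 0.24 (unadjusted p = 0.000152, adjusted p = 0.572). Zbtb16, a zinc finger transcription factor, had 1.21, 0.61 and 0.49 in TAA retinas, 0.15, -0.04 and 0.18 in DEX retinas and -0.04, -0.02 and -0.11 in BSS retinas, a difference of 0.83 ± 0.15 with an unadjusted p of 4.98e-05. All 3 TAA arrays lay above the DEX and BSS arrays in both genes. Arrdc2, an arrestin-domain gene, and Sult1a1, a sulfotransferase, stood 1.02 ± 0.21 and 0.87 ± 0.21 above BSS, and Sult1a1 came to 0.50 without the first TAA array.

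Under DEX at day 7 the same list had 20 of 29 genes higher, against 47.7% of all probe sets. Of these 1 had an unadjusted p under 0.05, against 3.38% of all probe sets. That gene was Bcl6, a transcriptional repressor, at 0.41 ± 0.19, and the median of the list was 0.09. In the direct comparison at day 7, 3 of 29 were higher in DEX than in TAA, against 50.8% of all probe sets. With an unadjusted p under 0.05, 11 were lower, against 6.1% of all probe sets, or 7 without the first TAA array. The list was led by Fam107a at -1.22 ± 0.24 and Zbtb16 at -0.67 ± 0.15. At day 30, TAA against BSS had 16 of 29 higher, against 43.9% of all probe sets, and 0 of them had such a p by limma. Pdk4, a kinase that restrains glucose oxidation, was the 1 gene lower with such a p, at -0.27 ± 0.11, against 6.74% of all probe sets. DEX against BSS at day 30 had 13 of 29 higher, against 45.2% of all probe sets. With such a p, 1 was higher and 2 were lower, against 11.3% of all probe sets, so these shares were close to the background. Fam107a was the higher one, at 0.65 ± 0.24, and Glul, the glutamine synthetase gene, was lower at -0.26 ± 0.11. Txnip, which binds thioredoxin, was lower there too, at -0.29 ± 0.12, with overlapping groups. For day 30 against day 7 under TAA, 13 of 29 were lower with an unadjusted p under 0.05, against 11.9% of all probe sets, with the metallothionein gene Mt1 at -1.42 ± 0.28. The mean over the list was -0.02, 0.001 and -0.04 on the TAA arrays of day 30, against the day 7 values above, of which the third was the lowest.

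A second list covered the receptor complex, steroid metabolism and coregulators, with 20 genes of which 16 were measured. The genes past the adjusted threshold were 2 chaperones, for day 30 against day 7 under DEX, where 1.92% of all probe sets passed. With an unadjusted p under 0.05, 3 of 16 were higher and 0 lower in that comparison, against 18.3% of all probe sets. That share of the list was close to the background. St13, the co-chaperone that helps load the receptor, had 0.60, 0.40 and -0.01 in DEX retinas of day 30 and -0.35, -0.25 and -0.29 in those of day 7, and rose by 0.62 ± 0.13 with an adjusted p of 0.033. Hsp90aa1, the inducible HSP90 gene, had 0.26, 0.39 and 0.12 in DEX retinas of day 30 and -0.20, -0.11 and -0.19 in those of day 7, and rose by 0.42 ± 0.10 with an adjusted p of 0.0443. Every array of day 30 lay above every array of day 7 in both. With 1 array left out the differences stayed within 0.49 to 0.79 for St13 and 0.36 to 0.49 for Hsp90aa1, but the adjusted p passed in the fit without the third DEX array of day 30 alone and ran up to 0.171 and 0.196 in the other 5. St13 was also higher at day 30 in BSS retinas, by 0.42 ± 0.13 with an unadjusted p of 0.00533.

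In the receptor complex list, TAA against BSS at day 7 had 1 of 16 higher with an unadjusted p under 0.05, Stub1, a ubiquitin ligase of chaperone clients, at 0.24 ± 0.11, against 3.75% of all probe sets. At day 30 TAA had 3 of 16 lower with such a p, against 6.74%. They were Nrip1, a corepressor of nuclear receptors, at -0.67 ± 0.26, Bag1, a co-chaperone, at -0.46 ± 0.20, and Crebbp, a histone acetyltransferase, at -0.54 ± 0.26. In all 3 the groups overlapped, and the second TAA array, the one with the widest spread and the lowest Actb difference, was far the lowest, at -1.32, -1.11 and -1.03. Without it the differences were -0.32, -0.17 and -0.28, and 0 of 16 were lower with such a p, as was the case without the first BSS array. Without the second BSS array it was 1. DEX against TAA at day 30 had 3 of 16 higher with such a p, Hsp90aa1 at 0.36 ± 0.10, Bag1 at 0.55 ± 0.20 and Nrip1 at 0.68 ± 0.26, against 15.8% of all probe sets. Without the second TAA array of day 30 Bag1 came to 0.25 and Nrip1 to 0.33, and 1 of 16 was higher and 2 lower with such a p. Without the third DEX array 7 of 16 were higher, when 23.1% of all probe sets had such a p. DEX against BSS gave 1 of 16 at day 7, Crebbp at 0.66 ± 0.26, against 3.38%, and 0 of 16 at day 30 by limma, where 0 also passed after adjustment.

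Among 18192 other genes, those whose pattern over the 18 arrays was most like that of Fkbp5 were Selenbp1 (r = 0.943), Sult1a1 (0.919), Fstl3 (0.870), Cdkn1a (0.866) and Tc2n (0.864). Without the first TAA array of day 7 and the second TAA array of day 30, the arrays farthest from the Fkbp5 median, these became 0.677, 0.714, 0.561, -0.0486 and -0.116. The likeness of Cdkn1a and Tc2n to Fkbp5 therefore rests on those 2 arrays. For Nr3c1 on 1421866_at the most alike genes, leaving out 2 with clone or predicted symbols at ranks 5 and 6, were Pde1c (0.853), Tmem100 (0.828), Clk1 (0.813), Cttnbp2 (0.810) and Mageb16 (0.788), and without the first and second DEX arrays of day 30 they were 0.804, 0.737, 0.755, 0.742 and 0.700. Fkbp5 and Nr3c1 had an r of -0.420 with each other. It was -0.716 without the 2 TAA arrays left out for Fkbp5 and -0.364 without the 2 DEX arrays left out for Nr3c1. Over all 18 arrays Klf15 was the member most like Fkbp5, with an r of 0.538 and rank 224 of 18192. Tsc22d3 came next with 0.432. Without the 2 TAA arrays this order turned, with 0.638 for Tsc22d3 and 0.491 for Klf15. Within the deviations from the group means, r with Fkbp5 was 0.167 for Klf15, 0.0238 for Tsc22d3 and -0.0482 for Nr3c1. All of these are descriptions over arrays that share the same groups.

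Markers of other cells moved on some of the same arrays. The mean over 6 reactive glia markers (Gfap, Serpina3n, Timp1, Cp, A2m and Lcn2) was 1.15, 2.80 and 0.12 on the TAA arrays of day 7. It was 0.47, 0.74 and 0.33 on the DEX arrays and -0.28, -0.86 and -0.43 on the BSS arrays of that day. In TAA 6 of 6 were higher than in BSS with an unadjusted p under 0.05, against 3.75% of all probe sets. In DEX 6 of 6 were higher than in BSS as well, 2 of them with such a p, against 3.38% of all probe sets. The first and second TAA arrays of day 7, high in these markers, were also those high in Klf9 1422264_s_at, while Fkbp5 1416125_at was highest on the first alone. At day 30 the same mean was -0.18, 0.29 and -1.01 on TAA arrays, -1.20, -1.15 and 0.13 on DEX arrays and -0.06, -1.03 and 0.79 on BSS arrays, so the DEX arrays high in Klf9 were low in reactive glia markers. Lcn2 also stands in the list of further response genes, and Glul in both that list and the Müller glia markers.

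The 8 Müller glia markers averaged -0.06 to 0.64 on TAA arrays, 0.12 to 0.28 on DEX arrays and -0.23 to 0.03 on BSS arrays of day 7. Under each steroid 7 of 8 were higher than BSS, against 47.7% of all probe sets for either steroid. The 6 microglia markers averaged -0.72 to 0.27 on TAA arrays, 0.16 to 0.58 on DEX arrays and -0.12 to 0.18 on BSS arrays of day 7. The 7 lens markers ran from 0.18 to 4.45 on TAA arrays, -1.85 to 0.65 on DEX arrays and -0.14 to 2.23 on BSS arrays of day 30, with the highest on the third TAA array, and -2.07 to 0.53, -1.86 to -0.07 and -0.38 to 0.06 at day 7, with the lowest on the second TAA array. The 6 measured rod markers averaged -0.41 on the second TAA array of day 30 and between -0.09 and 0.09 on the others. The 7 pigment epithelium markers averaged -0.43 to 0.53 on TAA, -0.08 to 0.14 on DEX and -0.25 to 0.07 on BSS arrays of day 30, and the 6 endothelial markers -0.15 to 0.09, -0.10 to 0.10 and -0.08 to 0.01. At day 7 the pigment epithelium markers averaged -0.39, 0.08 and -0.26 on TAA arrays, -0.43, -0.66 and 0.21 on DEX arrays and 0.22, 0.16 and 0.28 on BSS arrays, so the first and second DEX arrays lay below all BSS arrays. The endothelial markers averaged -0.28 to 0.49, 0.12 to 0.16 and -0.05 to 0.02 there. The part of these cells in the members' differences was not tested. With the second TAA array of each day left out together, a choice made after seeing the data, TAA against BSS at day 7 became 1.14 for Fkbp5 and 0.32 for Klf9 on their widest-varying probe sets.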

How the data were processed

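RNA of 18 mouse retinas was measured on 18 arrays. Per the submitters' processing notes the arrays were processed with RMA, whose version and settings are not given in the sources used here. The deposited values are on a log2 scale and centred, for each probe set, on the median array. The centring was read from the values, where every probe set median lay within 5e-07 of 0, and the log base and direction follow RMA's convention. Per the labels' protocols, retinas were put in RNAlater, RNA was isolated with a Qiagen kit and biotinylated cRNA was made by the two-cycle Affymetrix procedure.

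The 45037 probe sets other than 64 controls entered a single limma model (limma 3.58.1, R 4.3.3) that held a mean for each of the 6 groups and no covariate, which left 12 residual and 5.48 prior degrees of freedom. Adjusted p-values are Benjamini-Hochberg values over all of these probe sets, called at 0.05. No filter on level was possible. The platform annotation named 1 gene for 34945 probe sets, several for 932 and none for 9160. For a gene with several probe sets, that of the highest interquartile range over the arrays stands for the gene. All members are named. Values on every array are given for Nr3c1, for Fkbp5 and for members whose groups did not overlap with an unadjusted p under 0.05 in a comparison between TAA, DEX and BSS, and up to 4 genes of smallest p from each list in a comparison. Genes most like Fkbp5 or Nr3c1 are named unless their symbol is that of a clone or a predicted gene. Some other values, and the leaving out of each array for the lists, were added after results were seen. The members, the lists and the tests were chosen with earlier results of these data known. The fit was tested on simulated data. Alternatives were a replicate block, the compared groups alone, array weights, quantile normalization, array medians subtracted, robust moderation, a filter on the interquartile range, 1 probe set per gene and each array left out in turn.

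Promoter windows are those of RefSeq for GRCm38.p6, matched by gene symbol for the 8 target genes. Gene positions are from the same assembly. The search read both strands by listing each motif and its reverse complement, so an arm inside a palindromic element is counted as an arm too.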

Additional observations from a re-analysis of the deposited data

Results flagged for a closer look

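The DEX difference of Sgk1 on 1416041_at changed sides between the days. Every DEX array lay above every BSS array at day 30 (0.18 on the log2 scale) and below every BSS array at day 7 (-0.23). The change of the DEX effect was 0.40 ± 0.15 (SE), with an unadjusted p of 0.0165 and an adjusted p of 0.543 by limma, so it fails the correction over all probe sets. It was picked out because the groups do not overlap in opposite directions at the 2 days.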

How the results depend on the processing

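The count of members past an adjusted p of 0.05 was 0 in each of the 14 comparisons, and 223 of 234 alternatives gave 0 as well. The other 11 were these. With array weights, which ran from 0.206 on the second TAA array of day 30 to 4.23 on the third TAA array of day 7, the count was 3 for DEX against BSS at day 30, 1 for DEX against TAA at day 7, 2 for DEX against TAA at day 30, 3 for day 30 against day 7 under DEX, 1 for the same under BSS, 2 for the change of the DEX effect, 1 for DEX against BSS over both days and 2 for DEX against TAA over both days. With 1 array left out, the count ran from 0 to 2 for DEX against BSS at day 30, for DEX against TAA at day 30 and for day 30 against day 7 under DEX, and 2 was reached without the third DEX array of day 30. The members were Klf9 on 1422264_s_at and 1436763_a_at, Nr3c1 and Sgk1, plus Tsc22d3 under BSS with weights. The cause was not tested.

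The same settings changed the count over all probe sets. Array weights gave 4823 for DEX against BSS at day 30, 860 and 3959 for DEX against TAA at day 7 and day 30, 7674 for day 30 against day 7 under DEX and 511 under BSS, 2773 for the change of the DEX effect, 101 for TAA against BSS at day 7, 81 for day 30 against day 7 under TAA, 544 for DEX against BSS over both days and 3663 for DEX against TAA over both days, against 0, 0, 0, 863, 6, 0, 1, 0, 0 and 1 with equal weights. With 1 array left out, day 30 against day 7 under DEX ran from 2 to 2874, and it was 1 with the compared groups alone, which leaves fewer arrays in the fit, and 479 with 1 probe set per gene. Quantile normalization gave 532 there and 83 under BSS.

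Same-numbered arrays of different groups deviated together in 17 of 45 pairs at an r above 0.1 (median 0.0516, highest 0.480, against a median of -0.0173 for 90 pairs of unlike number). Not every pair was above 0.1 and no label says what a number marks, so the numbers were not taken to pair the arrays. That 11 of 18 arrays correlated best with their own number is a hint from the data, not from the design. With the replicate number as a block, the count of members was 0 in all 14 comparisons. Of the 81 differences of single genes from a steroid group, 34 turned their sign in some fit. Fkbp5 for TAA against BSS at day 7 became 0.35 without the first TAA array of day 7, and Klf9 became 0.15 with array weights, against 0.88 and 0.74. The centred values give no signal over background, so no member can be set aside as too dim.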
